A study of Mus musculus with 8 samples.

Results

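The genes described here build and organise the collagenous matrix of connective tissue, and most are made chiefly by fibroblasts. The list holds 40 genes out of 21154 named on the array. They were taken by name, each gene was read through the noncontrol probes whose transcript accession belongs to it, and the brightest of those probes on average over the 8 arrays stood for the gene. Of the 40 genes, 36 had a probe that passed the filter and were tested. The remaining members were Col8a1, Col15a1, Tnc and Igfbp5.

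Fibrillar collagens are secreted as procollagens, trimmed by proteinases outside the cell, and packed into fibrils that lysyl oxidases cross-link. Small proteoglycans such as decorin set the thickness of those fibrils, collagen VI and collagen XII tie them to their surroundings, and fibrillin microfibrils with fibulins form the scaffold on which elastin is laid down. In the peritoneum this matrix lies beneath the mesothelium and is kept up by fibroblasts that carry platelet-derived growth factor receptors. Macrophages of the peritoneal cavity are not known as a main source of fibrillar collagen.

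The RNA came from peritoneal cells of 8-week-old male or female mice on a mixed 129/C57Bl6 background. Cells were washed out of the peritoneal cavity and plated overnight, and the cells that adhered were lysed. There were 4 groups of 2 arrays: Fra-1 knockout (Fra-1lox/lox MxCre-/+, labelled as thioglycollate elicited), Fra-1 control (wild-type Fra-1lox/lox littermates, also labelled thioglycollate elicited), Fra-2 knockout (Fra-2lox/lox LysMCre-/+) and Fra-2 control (wild-type Fra-2lox/lox littermates). All mice, controls included, carried the floxed allele of their line. Thioglycollate is an irritant that draws monocytes into the cavity, Mx Cre is switched on by interferon in many cell types, and LysM Cre is active in myeloid cells. Mouse line, the thioglycollate label and any difference in preparation go together, so these cannot be told apart. No Cre is listed for the controls, so within each line deletion and the presence of Cre go together too. Between the knockouts, the deleted gene goes together with the Cre driver. The study's design gives 4 wild-type mice and 2 of each knockout, as many as there are arrays, but does not state that each array holds the RNA of 1 mouse, so the p-values measure the spread between these arrays.

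Each value is a log2 level of the scanner's processed signal, taken relative to the 75th percentile of its array, so a probe at that percentile has the level 0. A probe counted as measured on an array when the scanner software set it well above background. On 59305 noncontrol spots per array, 47.7% to 57.6% were well above background, with the lowest share on Fra-2 knockout 1. Fosl1, which encodes Fra-1, was below background on both Fra-1 knockout arrays (−4.78 and −4.18) and above it on both Fra-1 control arrays (−2.73 and −1.97). Fosl2, which encodes Fra-2, read 6.43 and 7.14 on the arrays labelled Fra-2 knockout and 5.51 and 5.57 on the Fra-2 control arrays, so its brightest probe went against the label. A dimmer Fosl2 probe went with it, at −3.96 and −3.82 in Fra-2 knockouts (1 array above background) and −2.59 and −2.64 in Fra-2 controls. The position of these probes against the exons removed by Cre was not known, so they do not settle the label. All 12 macrophage markers on the list were tested, and Lyz2 (lysozyme M) read 8.35 and 8.52 in Fra-1 knockouts, 8.72 and 8.22 in Fra-1 controls, 8.80 and 8.79 in Fra-2 knockouts and 8.93 and 9.41 in Fra-2 controls. RNA of a mixed sample cannot separate fewer cells of a type from less RNA per cell.

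Summed levels of the matrix genes differed between Fra-1 knockouts, Fra-1 controls and the Fra-2 line, whereas the ranges of the Fra-2 groups overlapped. Of the 40 genes, 28 were above background on both Fra-1 knockout arrays, 36 on both Fra-1 control arrays, 19 on both Fra-2 knockout arrays and 22 on both Fra-2 control arrays. Summed over the 40 genes, the linear signal (in multiples of the 75th percentile) was 139 to 198 on Fra-1 knockout arrays, 334 to 455 on Fra-1 control arrays, 24.6 to 28.6 on Fra-2 knockout arrays and 20.0 to 26.5 on Fra-2 control arrays. Sparc alone made up 44.5% to 46.3% of that sum on Fra-1 knockout arrays, 47.0% to 47.4% on Fra-1 control arrays, 18.2% to 19.8% on Fra-2 knockout arrays and 14.4% to 19.9% on Fra-2 control arrays. Without Sparc the ranges were 76.9 to 106 for Fra-1 knockout, 176 to 241 for Fra-1 control, 19.7 to 23.4 for Fra-2 knockout and 17.2 to 21.2 for Fra-2 control. A set of 18 genes was above background on all 8 arrays and 3 (Col8a1, Tnc and Igfbp5) on none. In the Fra-2 line 15 genes were below background on all 4 arrays, 11 of them among the tested genes. Col15a1 was above background only on Fra-1 control 2.

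**Figure D1:**
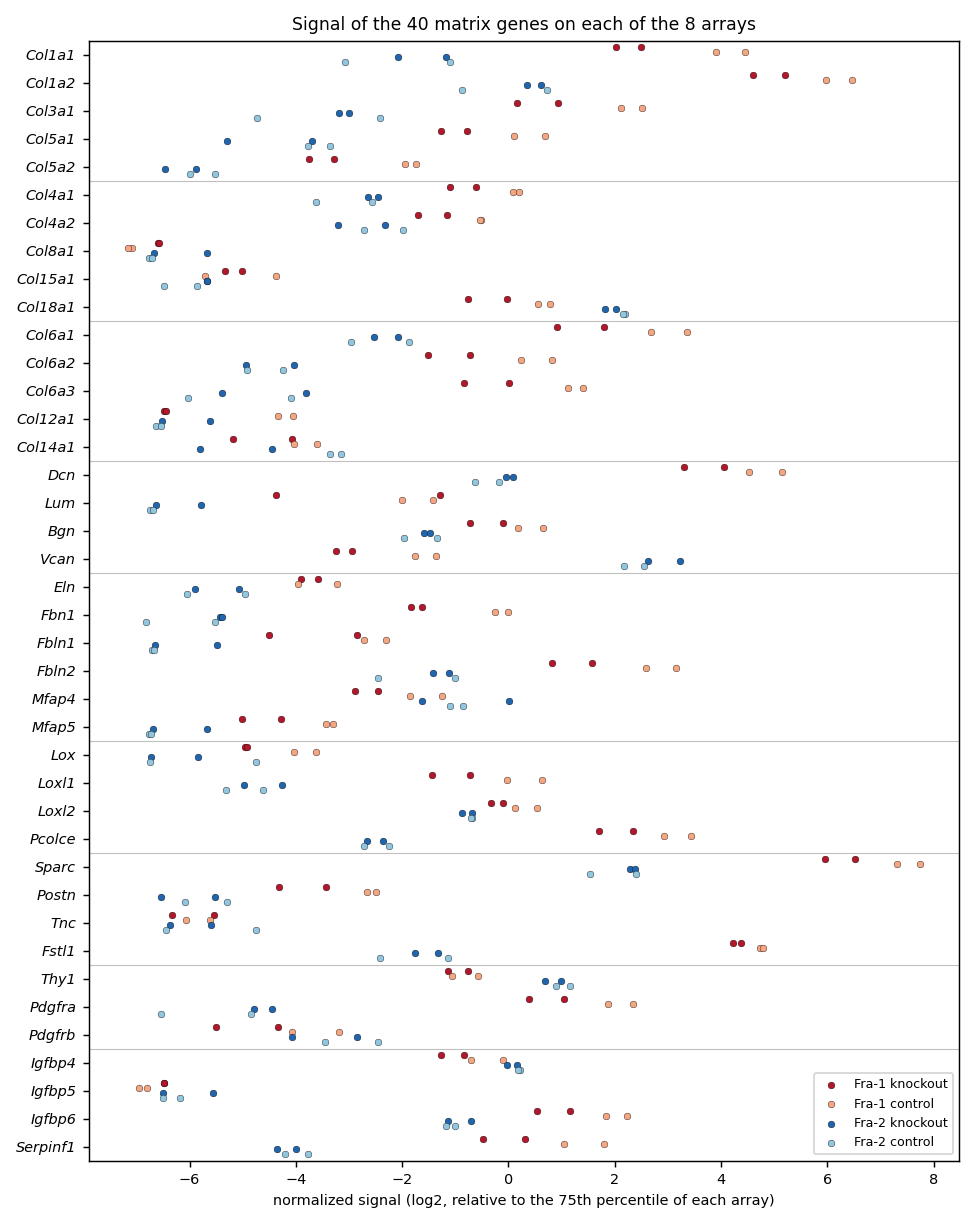
Normalized log2 signal (x axis) of the 40 matrix genes (rows, grouped by role) on each array, coloured by group, 2 points a group. Most genes are highest on the Fra-1 control arrays, next on the Fra-1 knockout arrays and lowest on the Fra-2 line arrays, whereas Vcan, Thy1 and Col18a1 are higher in the Fra-2 line.

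Fra-1 and Fra-2 are subunits of AP-1, a dimeric factor that binds the heptamer TGANTCA. RefSeq promoter windows (GRCm38.p6) were available for 26 of the 40 genes, and the 250 bases before the annotated start were searched on both strands for this AP-1 site, for the CCAAT box and for the TATA box (TATAAA). The AP-1 site occurred in 1 of the 26 genes (3.85%), against 7.82% of 27025 genes with a window. The CCAAT box occurred in 7 of 26 (26.9%, against 37.5%) and the TATA box in 5 of 26 (19.2%, against 14.3%). No match of a motif overlapped a match of another motif in these genes. The last 120 bases before the start are printed for the gene with the AP-1 match (Col6a1), for a fibrillar collagen and a proteoglycan with a CCAAT box (Col1a2, and Vcan, where it lies on the opposite strand), for a gene with a TATA box (Postn), and for the genes with the largest differences between the control groups (Pdgfra and Fstl1), in which none of the motifs was found in these stretches. Capitals mark the match, and each stretch is written 5′ to 3′ on the strand of its gene. The stretches lie at chr10:76726045-76726164 on the minus strand (Col6a1), chr6:4505498-4505617 on the plus strand (Col1a2), chr13:89742513-89742632 on the minus strand (Vcan), chr3:54360987-54361106 on the plus strand (Postn), chr5:75152131-75152250 on the plus strand (Pdgfra) and chr16:37776935-37777054 on the plus strand (Fstl1).
Col6a1: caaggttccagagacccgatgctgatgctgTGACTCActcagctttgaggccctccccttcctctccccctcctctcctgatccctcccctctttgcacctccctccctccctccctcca
Col1a2: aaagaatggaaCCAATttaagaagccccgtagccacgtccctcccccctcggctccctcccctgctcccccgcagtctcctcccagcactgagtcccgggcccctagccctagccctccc
Vcan: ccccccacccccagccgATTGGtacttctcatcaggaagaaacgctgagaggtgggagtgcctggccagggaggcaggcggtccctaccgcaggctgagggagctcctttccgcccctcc
Postn: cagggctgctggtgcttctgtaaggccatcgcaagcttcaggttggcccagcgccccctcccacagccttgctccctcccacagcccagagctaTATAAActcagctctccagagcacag
Pdgfra: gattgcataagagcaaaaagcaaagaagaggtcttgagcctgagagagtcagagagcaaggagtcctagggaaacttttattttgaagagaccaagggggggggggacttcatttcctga
Fstl1: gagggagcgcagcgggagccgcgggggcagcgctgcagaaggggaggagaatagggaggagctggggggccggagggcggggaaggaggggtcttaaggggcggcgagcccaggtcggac
A match is a description of the letters and not evidence of binding. The Col6a1 match begins 90 bases before the annotated start, the Col1a2 match 109 bases, the Vcan match 103 bases and the Postn match 26 bases before it.

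The first comparison asked how matrix genes differ between Fra-1 knockouts and Fra-1 controls. No matrix gene passed the test in Fra-1 knockouts against Fra-1 controls, yet all 36 tested genes had a negative difference, with a median log2 difference of −1.28, against 0.03 over all tested features. By limma with Benjamini-Hochberg adjustment, 0 of 36 genes were called at an adjusted p under 0.05, where 3 of 23104 features (0.013%) were called in either direction. At an unadjusted p under 0.05, 24 of 36 genes were lower, against 5.48% of features, and 0 were higher, against 3.35% of features. The Fra-1 knockout arrays lay entirely below the Fra-1 control arrays for 33 genes, against 19.0% of features. These counts rest on few arrays. Leaving out Fra-1 control 2 turned the 24 into 7, with a median of −1.07, and leaving out Fra-1 knockout 2 turned it into 8, with a median of −1.01. Over all 40 genes, including those below background, 38 differences were negative with a median of −1.17. The 18 genes above background on every array had a median of −1.13, and 14 of them were lower at an unadjusted p under 0.05.

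**Figure D2:**
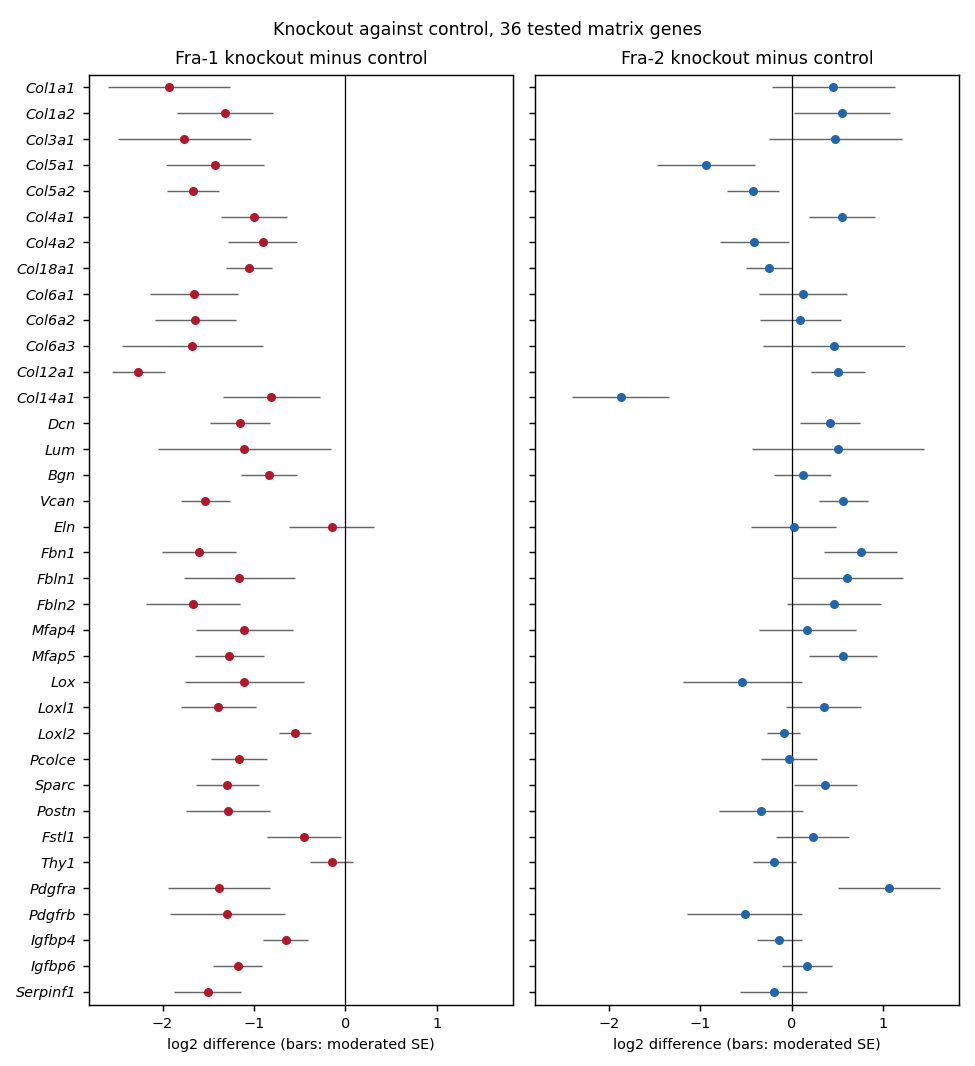
Log2 difference between knockout and control (x axis, bars are the moderated standard error) for the 36 tested matrix genes, with the Fra-1 comparison on the left and the Fra-2 comparison on the right. On the left all points lie below 0 with a median of −1.28, and on the right they lie on both sides with a median of 0.17.

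Fibrillar collagens form the load-bearing fibrils of the matrix. Col1a1 (the α1 chain of collagen I) read 2.50 and 2.02 on the Fra-1 knockout arrays and 3.91 and 4.46 on the Fra-1 control arrays, a log2 difference of −1.93 (SE 0.67, adjusted p = 0.498, 3.81-fold). Its partner chain Col1a2 read 5.19 and 4.60 in Fra-1 knockouts and 5.97 and 6.46 in Fra-1 controls, a difference of −1.32 (adjusted p = 0.561). In neither gene did the groups overlap. Col3a1, the chain of collagen III, read 0.93 and 0.17 in Fra-1 knockouts, against 2.11 and 2.52 in Fra-1 controls (−1.76, adjusted p = 0.567). Collagen V nucleates the fibrils, and its chains Col5a1 and Col5a2 differed by −1.43 and −1.67, with the smallest p of the fibrillar set in Col5a2 (−3.28 and −3.76 against −1.95 and −1.75, adjusted p = 0.211). The 5 fibrillar collagens had a median of −1.67, and 4 were lower at an unadjusted p under 0.05.

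Among network collagens, Col4a1 and Col4a2, the chains of the basement membrane collagen, are neighbours in the genome. Col4a1 read −0.62 and −1.10 in Fra-1 knockouts and 0.08 and 0.21 in Fra-1 controls (−0.999, adjusted p = 0.508), and Col4a2 read −1.17 and −1.71 in Fra-1 knockouts and −0.52 and −0.54 in Fra-1 controls (−0.90, adjusted p = 0.576). Col18a1, the source of endostatin, differed by −1.05 (SE 0.25, adjusted p = 0.340), with −0.02 and −0.75 in Fra-1 knockouts and 0.55 and 0.78 in Fra-1 controls. Its dimmer probe had −1.09. The arrays of the groups were apart in all 3 genes.

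Collagen VI forms beaded filaments around cells from 3 chains. Col6a1 read 1.80 and 0.91 in Fra-1 knockouts and 2.68 and 3.35 in Fra-1 controls (−1.66, adjusted p = 0.423). Col6a2 and Col6a3 differed by nearly the same amount, −1.64 and −1.68. Col12a1, which coats the surface of collagen I fibrils, had the largest difference of all tested matrix genes, −2.27 (SE 0.29, adjusted p = 0.159). It was below background on both Fra-1 knockout arrays (−6.49 and −6.43) and just above it on the Fra-1 control arrays (−4.33 and −4.06), so it was at least 1.21-fold lower in knockouts. Such a bound takes, on each array, the higher of the lowest signal well above background and the gene's own value. The filter kept Col12a1, Mfap5, Lox, Lum, Fbln1 and Postn through the Fra-1 control arrays alone, so a lower reading elsewhere was built into their choice. Col12a1 was called with quantile normalization (adjusted p = 0.00756) and without either Fra-2 knockout array (adjusted p = 0.0299), and its difference was 0.00 with a common floor. Col14a1, a related fibril-associated collagen, read −4.08 and −5.18 in Fra-1 knockouts and −4.04 and −3.60 in Fra-1 controls (−0.81, adjusted p = 0.693). Its other kept probe differed by −0.24.

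Proteoglycans with leucine-rich repeats bind collagen fibrils. Dcn (decorin) read 4.06 and 3.30 in Fra-1 knockouts and 4.53 and 5.15 in Fra-1 controls (−1.16, SE 0.33, adjusted p = 0.421). Bgn (biglycan) read −0.10 and −0.73 in Fra-1 knockouts, against 0.18 and 0.66 in Fra-1 controls (−0.83, adjusted p = 0.529). Lum (lumican) was the least even gene of the list. It read −1.28 and −4.37 on the Fra-1 knockout arrays and −2.01 and −1.43 on the Fra-1 control arrays, so that the groups overlapped, and its difference of −1.11 became 0.44 without Fra-1 knockout 2. Vcan (versican), a large hyaluronan-binding proteoglycan, read −3.25 and −2.94 in Fra-1 knockouts and −1.76 and −1.37 in Fra-1 controls (−1.53, SE 0.27, adjusted p = 0.225). Its other kept probe was the brighter one on these arrays and differed by only −0.20, with overlapping groups. That probe read −1.44 and −1.16 in Fra-1 knockouts and −1.24 and −0.96 in Fra-1 controls.

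Elastic fibres and microfibrils held a wider range of differences. Fbn1 (fibrillin-1) read −1.63 and −1.83 in Fra-1 knockouts and −0.25 and −0.01 in Fra-1 controls (−1.60, SE 0.40, adjusted p = 0.360). With all values under a common detection floor set to that floor, Fbn1 kept −1.60 and was called (adjusted p = 0.0312). Fbln2 (fibulin-2) read 1.58 and 0.82 in Fra-1 knockouts, against 2.60 and 3.15 in Fra-1 controls (−1.67, adjusted p = 0.448). Fbln1 (fibulin-1) read −2.85 and −4.50 in Fra-1 knockouts and −2.72 and −2.31 in Fra-1 controls, and Mfap4 differed by −1.11. Mfap5, a microfibril glycoprotein, was below background in Fra-1 knockouts and at least 1.99-fold lower there (−1.27, adjusted p = 0.427). Eln (elastin) overlapped between the groups, at −3.90 and −3.58 in Fra-1 knockouts and −3.96 and −3.23 in Fra-1 controls. Its difference of −0.15 was 0.06 with normexp background correction, 0.21 when Fra-1 control 2 was left out and 0.01 when Fra-1 knockout 1 was.

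Collagen maturation needs Pcolce, which speeds removal of the C-propeptide, and lysyl oxidases, which cross-link the fibrils. Pcolce read 2.34 and 1.70 in Fra-1 knockouts and 2.92 and 3.43 in Fra-1 controls (−1.16, SE 0.31, adjusted p = 0.381). Loxl1 read −0.73 and −1.45 in Fra-1 knockouts and −0.02 and 0.63 in Fra-1 controls (−1.39, adjusted p = 0.433), and its other probe differed by −1.32. Loxl2 had a smaller difference of −0.55 on its brightest probe and −0.82 and −1.05 on its other probes. On its brightest probe Lox was below background on both Fra-1 knockout arrays (−4.95 and −4.92), at least 1.56-fold lower in knockouts (−1.11, adjusted p = 0.669). That probe was above background on both Fra-1 control arrays (−4.04 and −3.61). Another kept Lox probe read −3.86 and −5.93 in Fra-1 knockouts and −4.22 and −4.43 in Fra-1 controls (−0.57). On that probe the groups overlapped.

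Matricellular proteins modulate how cells meet the matrix. Sparc (osteonectin), which binds collagen and calcium, had the highest signal of the list, with 6.52 and 5.95 in Fra-1 knockouts and 7.31 and 7.74 in Fra-1 controls (−1.29, SE 0.34, adjusted p = 0.385). Another Sparc probe had −0.74 and the dimmest of them on the Fra-1 control arrays, at −0.80 and −0.81 in Fra-1 knockouts and −0.89 and −0.98 in Fra-1 controls, had 0.13. Among the 8 members with several kept probes, Sparc was the only gene whose probes differed in sign here. Postn (periostin) read −3.43 and −4.31 in Fra-1 knockouts and −2.67 and −2.50 in Fra-1 controls (−1.29, adjusted p = 0.509). Fstl1, a secreted glycoprotein related to follistatin, differed by less than most, with 4.23 and 4.38 in Fra-1 knockouts and 4.74 and 4.78 in Fra-1 controls (−0.45, adjusted p = 0.774).

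Of the surface proteins, Pdgfra, the receptor for platelet-derived growth factor that marks most fibroblasts, read 1.04 and 0.40 in Fra-1 knockouts and 1.87 and 2.34 in Fra-1 controls (−1.38, adjusted p = 0.561). Pdgfrb, its relative on pericytes and fibroblasts, was below background in Fra-1 knockouts (−4.34 and −5.51) and above it in Fra-1 controls (−4.07 and −3.19). On these readings it was at least 1.72-fold lower in knockouts, but it was not called (−1.29, SE 0.63, adjusted p = 0.629). Its difference was −0.71 without Fra-1 knockout 2. Thy1, a surface glycoprotein of fibroblasts and also of mouse T cells, read −0.77 and −1.14 in Fra-1 knockouts and −1.05 and −0.57 in Fra-1 controls. The groups overlapped, and the difference of −0.15 was 0.07 with normexp background correction, 0.10 when Fra-1 control 2 was left out and 0.04 when Fra-1 knockout 2 was.

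Secreted binding proteins gave differences of the same order. Igfbp6, which prefers insulin-like growth factor II, read 1.15 and 0.54 in Fra-1 knockouts and 1.83 and 2.22 in Fra-1 controls (−1.18, SE 0.27, adjusted p = 0.326). Serpinf1, which encodes the antiangiogenic factor PEDF, read 0.30 and −0.48 in Fra-1 knockouts, against 1.04 and 1.80 in Fra-1 controls (−1.51, SE 0.37, adjusted p = 0.347; −1.72 on its other probe). Igfbp4 differed by −0.65 (adjusted p = 0.529).

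Slide and replicate spread bear on this comparison. Both Fra-1 control arrays and Fra-1 knockout 1 were on slide 1, and Fra-1 knockout 2 on slide 2. Within slide 1 the difference was negative for 34 of 36 genes with a median of −1.01, and positive for Lum and Thy1. It is the same difference as with Fra-1 knockout 2 left out, so it is not a separate check. With slide as a block the median was −1.27 and 36 of 36 were negative. Replicates moved as sets: Fra-1 knockout 2 was below Fra-1 knockout 1 for 29 of 36 genes (median −0.60), and Fra-1 control 2 was above Fra-1 control 1 for 34 of 36 (median 0.44), against replicate medians of 0.05 and −0.03 over all features.

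The second comparison asked the same of Fra-2. Matrix genes showed no common direction in the arrays labelled Fra-2 knockout against Fra-2 controls: 23 of 36 differences were positive and 13 negative, with a median of 0.17, against −0.03 over all features. Limma called 0 of 36 genes and 0 of 23111 features (0.0%). At an unadjusted p under 0.05, 1 gene was lower (5.81% of features) and 0 were higher (3.0% of features). The count in both directions was 10 when Fra-2 control 2 was left out, 5 when Fra-2 knockout 2 was, and 3 with slide as a block. The gene that was lower was Col14a1, which read −5.80 and −4.45, below background, on Fra-2 knockout arrays and −3.15 and −3.36 on Fra-2 control arrays (−1.87, SE 0.53, adjusted p = 0.369, at least 1.69-fold lower). It had −2.65 within slide 1 and −1.09 within slide 2, and −0.37 on its dimmer probe. Of the 8 members with several kept probes, 4 had probes of the same sign here. The probes of Lox, Loxl1, Serpinf1 and Sparc differed in sign. Loxl2 had −0.09 on its brightest probe and −0.90 and −0.80 on its other probes. Col18a1 had −0.25 on its brightest probe and −1.17 on its other probe.

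The 18 genes above background on all 4 Fra-2 arrays had a median of 0.17, with 12 positive. Col1a1 read −2.08 and −1.17 in Fra-2 knockouts and −3.07 and −1.10 in Fra-2 controls, and Col1a2 read 0.35 and 0.61 in Fra-2 knockouts and −0.87 and 0.72 in Fra-2 controls. Sparc read 2.28 and 2.38 in Fra-2 knockouts, against 1.53 and 2.40 in Fra-2 controls. In each of these 3 genes the groups overlapped. The groups were apart for 8 genes higher (15.0% of features) and 3 lower (20.4% of features) in Fra-2 knockouts, and of the 8 only Vcan and Dcn were measured on all 4 arrays. Vcan read 2.63 and 3.23 in Fra-2 knockouts and 2.18 and 2.55 in Fra-2 controls (0.57, adjusted p = 0.635), and Dcn read 0.08 and −0.05 in Fra-2 knockouts and −0.62 and −0.18 in Fra-2 controls. Col5a1 differed by −0.94 with overlapping groups. Fra-2 control 1 read low for several collagens, Col3a1 at −4.74 against −2.42 on Fra-2 control 2. Without Fra-2 control 1 the median over the 36 genes was −0.07 and without Fra-2 control 2 it was 0.50.

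Of the 11 tested genes below background on all 4 Fra-2 arrays, 8 had a positive difference and 3 a negative one. Fra-2 knockout 1 read higher than the other arrays for several of them. Mfap5 read −5.68 and −6.68 in Fra-2 knockouts and −6.77 and −6.72 in Fra-2 controls, and the unmeasured Col8a1 read −5.67 and −6.68 in Fra-2 knockouts and −6.77 and −6.71 in Fra-2 controls. Detection began at a level of −3.58 on that array and between −4.98 and −4.45 on the rest. Pdgfra had the largest positive difference (1.07, adjusted p = 0.673) and Fbn1 the next (0.76, adjusted p = 0.680), and both are differences between values below background. With the common floor, Pdgfra, Fbn1 and Col12a1 each differed by 0.00.

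The effect of the Fra-1 knockout minus that of the Fra-2 knockout was tested as an interaction. It was negative for 34 of 36 genes with a median of −1.45, against 0.05 over all features, and positive for Col14a1 and Thy1. Limma called 0 of 36 genes and 1 of 23098 features (0.00433%). At an unadjusted p under 0.05, 18 genes were lower, against 4.17% of features, and 0 were higher, against 5.37% of features. The 18 became 6 when Fra-1 control 2 was left out, 7 when Fra-1 knockout 2 was, and 12 when Fra-2 knockout 2 was. The smallest p belonged to Col12a1 (−2.78, adjusted p = 0.186), followed by Vcan (−2.10, adjusted p = 0.227) and Fbn1 (−2.36, adjusted p = 0.316). Igfbp6 (−1.35), Mfap5 (−1.83) and Sparc (−1.66) came next, with adjusted p from 0.377 to 0.388. Col12a1, Fbn1 and Mfap5 were below background on every Fra-2 line array. The Fra-2 part of their values thus compares unmeasured signals. With the common floor the interaction of Col12a1 was 0.00. Over the alternatives that kept all arrays, Mfap5 ran from −1.83 to −0.20 and Fbn1 from −2.55 to −1.36. The value for Vcan rests on its chosen probe. Its other kept probe differed by only −0.20 in the Fra-1 comparison and by 0.38 in the Fra-2 comparison. The value for Sparc depends on its probe as well. Another kept Sparc probe had −0.74 in the Fra-1 comparison and 0.52 in the Fra-2 comparison, whereas the remaining kept probe had 0.13 and −0.36. A difference between the knockouts in these genes was therefore not shown at the threshold, and a p that misses it does not show that the effects were alike.

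The largest differences of the matrix genes lay between the groups of floxed controls. In Fra-1 controls against Fra-2 controls, 28 of 36 genes were higher and 3 lower by limma at an adjusted p under 0.05, where 18.1% of features were higher and 17.8% lower. The median log2 difference was 3.93, against −0.03 over all features. The 11 tested genes below background on all 4 Fra-2 arrays passed the filter only through Fra-1 line arrays. A higher reading in the Fra-1 line was thus built into their choice, and 10 of them were called higher. Of the 18 genes above background on all 4 Fra-2 arrays, 13 were called higher and 3 lower, with a median of 3.18. Pdgfra differed most, with 1.87 and 2.34 in Fra-1 controls and −6.53 and −4.85, below background, in Fra-2 controls (7.79, SE 0.56, adjusted p = 3.91e-04, at least 103-fold higher; 5.68 with the common floor). Fstl1 read 4.74 and 4.78 in Fra-1 controls and −2.41 and −1.14 in Fra-2 controls (6.53, adjusted p = 2.69e-04, 92.6-fold). In both genes the groups were far apart.

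**Figure D3:**
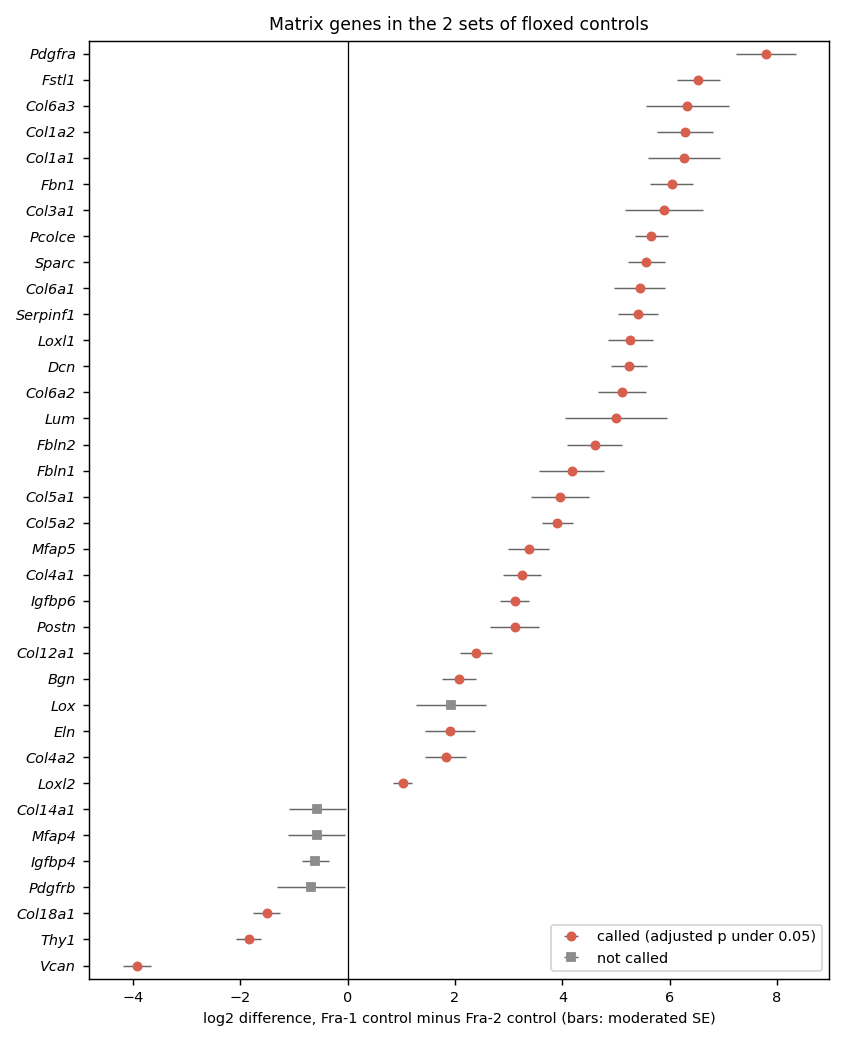
Log2 difference between Fra-1 controls and Fra-2 controls (x axis, bars are the moderated standard error) for the 36 tested matrix genes in order of size, with called genes as circles and the other genes as squares. The values run from 7.79 for Pdgfra to −3.93 for Vcan, and 28 called genes lie on the positive side and 3 on the negative side.

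All 5 fibrillar collagens were higher in Fra-1 controls, with differences of 6.27 for Col1a1 (adjusted p = 0.00131), 6.29 for Col1a2 (adjusted p = 6.08e-04), 5.89 for Col3a1 (adjusted p = 0.00216), 3.95 for Col5a1 and 3.91 for Col5a2, the last at least 6.70-fold. Collagen VI was higher as well, by 5.44 for Col6a1, 5.11 for Col6a2 and 6.33 for Col6a3. Col3a1, Col6a2 and Col6a3 were each above background on only 1 Fra-2 control array. With the common floor their differences were 5.31, 4.10 and 4.84. The basement membrane chains were higher by 3.24 for Col4a1 and 1.83 for Col4a2. Several of these values leaned on a single Fra-2 control: without Fra-2 control 1 the difference was 5.29 for Col1a1, 5.50 for Col1a2, 4.73 for Col3a1, 5.36 for Col6a3, 3.89 for Fbln2, 5.39 for Fbn1, 5.90 for Fstl1 and 6.95 for Pdgfra. Without Fra-2 control 2 it was 7.26 for Col1a1, 7.08 for Col1a2, 7.05 for Col3a1, 7.30 for Col6a3, 5.32 for Fbln2, 6.69 for Fbn1, 7.17 for Fstl1 and 8.63 for Pdgfra. These genes were called in each of those fits.

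Other matrix genes followed. Dcn was higher by 5.24 (4.53 and 5.15 in Fra-1 controls, −0.62 and −0.18 in Fra-2 controls, adjusted p = 2.76e-04), Sparc by 5.56, Pcolce by 5.66 and Serpinf1 by 5.40. Fbn1 was at least 22.1-fold higher (6.04, or 3.45 with the common floor) and Loxl1 at least 29.7-fold, both below background on all Fra-2 arrays. Fbln1, Lum, Postn and Mfap5 were likewise below background there, with bounds of at least 4.22-fold, 7.33-fold, 4.02-fold and 2.33-fold. Bgn (2.07) and Loxl2 (1.03) were measured on every array and were higher too. The call of Col4a2 was lost when Fra-2 control 1, Fra-1 control 1 or Fra-1 control 2 was left out (adjusted p from 0.0618 to 0.0625). That of Eln (1.91, adjusted p = 0.0236, at least 2.00-fold) was lost without Fra-2 control 2 (1.37) or Fra-1 control 2 (1.55), with slide as a block (1.92, adjusted p = 0.0548) and with the common floor (0.17). Lum lost its call without Fra-1 control 2 (4.71, adjusted p = 0.0571) and with the common floor (1.86, adjusted p = 0.127), and Col12a1, at least 1.32-fold higher, with the common floor (0.00).

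The genes that went the other way were Vcan, Thy1 and Col18a1. Vcan read −1.76 and −1.37 in Fra-1 controls and 2.18 and 2.55 in Fra-2 controls (−3.93, SE 0.27, adjusted p = 3.47e-04). Its other kept probe differed by −2.12. Thy1 read −1.05 and −0.57 in Fra-1 controls and 0.90 and 1.17 in Fra-2 controls (−1.84, adjusted p = 0.00244). Of 6 tested T cell markers, 5 were called lower in Fra-1 controls, as Thy1 was, and 1 had a positive difference (0.68, not called). Lck, a kinase of T cells, had −3.03. The summed signal of the T cell markers was 7.88 to 8.11 in Fra-1 controls and 17.9 to 24.1 in Fra-2 controls. Their part in the Thy1 difference was not tested. Col18a1 read 0.55 and 0.78 in Fra-1 controls and 2.19 and 2.15 in Fra-2 controls (−1.51, adjusted p = 0.00644), with −0.92 (adjusted p = 0.0509) on its dimmer probe. Thy1, Vcan and Col18a1 were above background on all 8 arrays.

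The remaining 5 tested genes were not called between the controls. Col14a1 (−0.56), Mfap4 (−0.58), Pdgfrb (−0.68) and Igfbp4 (−0.60, adjusted p = 0.106) had negative differences and Lox a positive one (1.92, adjusted p = 0.0647). Igfbp4 was called without Fra-1 control 2 (−0.90, adjusted p = 0.0493), and Col14a1 with the common floor (−0.32, adjusted p = 0.0265). Lox was called without Fra-2 control 2 (2.92, adjusted p = 0.00907), with quantile normalization (1.98, adjusted p = 0.0395), with normexp correction (0.39, adjusted p = 0.0273) and with its probes averaged (2.17, adjusted p = 0.0188), and was at 0.00 with the common floor. Mfap4 read −1.26 and −1.85 in Fra-1 controls and −0.85 and −1.10 in Fra-2 controls. Pdgfrb overlapped between the groups. Probes of Col14a1 and Sparc disagreed in sign: the Sparc probe that had 0.13 in the Fra-1 comparison was lower in Fra-1 controls (−1.62), whereas the other was higher by 5.34. Within slide 1, which held both Fra-1 controls and Fra-2 control 1, 29 of 36 differences were positive with a median of 3.97. These are the same differences as with Fra-2 control 2 left out.

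Genes that modify and fold collagen, and further lists, were read beside the matrix genes. For their counts, 18.1% of all features were called higher and 17.8% lower in Fra-1 controls than in Fra-2 controls. At an unadjusted p under 0.05, 5.48% of features were lower and 3.35% higher in Fra-1 knockouts. In Fra-2 knockouts these shares were 5.81% and 3.0%. Of 25 such genes, 21 were tested, 9 were higher and 6 lower in Fra-1 controls than in Fra-2 controls. Fkbp10 (5.88) and Serpinh1 (5.66), chaperones of procollagen in the endoplasmic reticulum, and Adamts14 (4.11), which cuts the N-propeptide, were higher. None of the 21 passed in either knockout comparison. Adamts2, another N-propeptide peptidase, read 0.08 and −0.51 in Fra-1 knockouts and 0.79 and 1.35 in Fra-1 controls (−1.29, adjusted p = 0.299). At an unadjusted p under 0.05, 6 were lower and 1 higher in Fra-1 knockouts, with a median of −0.24, and 2 lower and 0 higher in Fra-2 knockouts.

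Further collagens and glycoproteins of the matrix gave mixed values. Of 20 other collagens 11 were tested, with 0 called in Fra-1 knockouts (5 lower at an unadjusted p under 0.05, median −0.37), and 4 higher and 0 lower in Fra-1 controls than in Fra-2 controls, led by Col4a5 (4.64). Col6a5, below background in Fra-1 knockouts and near it in Fra-1 controls, was at least 1.61-fold lower in knockouts. Of 26 basement membrane and glycoprotein genes 23 were tested in the Fra-1 comparison, with a median of −0.49, 10 lower at an unadjusted p under 0.05 and 0 called. Ltbp1, which stores latent TGF-beta in the matrix, had the smallest p among them, with −4.22 and −4.24 in Fra-1 knockouts and −2.97 and −2.89 in Fra-1 controls (−1.30, adjusted p = 0.0848). Between the controls 12 were higher and 6 lower, with Spp1 (osteopontin) at 6.95, Lama4 (a laminin chain) at 5.86 and Ltbp1 at −6.33. Of 17 ligands, receptors and mediators of TGF-beta and PDGF signalling on the array, 16 were tested. In Fra-1 knockouts 4 were lower at an unadjusted p under 0.05 (median −0.24), Tgfb3 with −1.32 (adjusted p = 0.360), and between the controls 6 were higher and 2 lower, Ccn2 by 5.09.

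Markers of other stromal and lining cells were read as well. Of 28 other fibroblast genes 20 were tested. Their summed signal was 263 to 293 in Fra-1 knockouts and 217 to 241 in Fra-1 controls, and without S100a4, which other cells also make, 102 to 110 in Fra-1 knockouts and 102 to 136 in Fra-1 controls. It was 36.1 to 41.4 in Fra-2 knockouts and 53.9 to 74.7 in Fra-2 controls with S100a4, and 19.0 to 25.8 in Fra-2 knockouts and 20.9 to 21.6 in Fra-2 controls without it. In Fra-1 knockouts 7 were lower and 1 higher at an unadjusted p under 0.05, 0 were called, 14 differences were negative and 6 positive, and the median was −0.71. Ogn (osteoglycin) read −1.44 and −2.15 in Fra-1 knockouts and −0.71 and −0.56 in Fra-1 controls (−1.16, adjusted p = 0.289). Between the controls 11 were higher, among them Ddr2, a collagen receptor (6.70), and Ogn (5.99), and 6 lower, led by Meox1 (−7.95). Dpt, Tcf21, Meox2, Podn and Fgf10 were below background on all 8 arrays.

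Slpi, an antiprotease that macrophages also make, carried 86.5% to 94.5% of the summed signal of the mesothelial markers on Fra-1 knockout arrays, 73.5% to 75.2% on Fra-1 control arrays and 99.6% to 99.7% on the Fra-2 line arrays. With Slpi their sum was 71.1 to 118 on Fra-1 knockout arrays and 52.2 to 71.2 on Fra-1 control arrays. On Fra-2 knockout arrays it was 696 to 707, and on Fra-2 control arrays 554 to 716. Without Slpi the sum was 6.49 to 9.62 on Fra-1 knockout arrays and 13.0 to 18.9 on Fra-1 control arrays. On Fra-2 knockout arrays it was then 2.12 to 2.87, and on Fra-2 control arrays 1.85 to 1.91. All 13 mesothelial markers on the array were tested. In Fra-1 knockouts 4 were lower and 2 higher at an unadjusted p under 0.05 and 0 were called, with Bnc1 at −3.17 and −4.05 in Fra-1 knockouts and −1.93 and −1.24 in Fra-1 controls (−2.03, adjusted p = 0.295). Wt1 was higher in Fra-1 controls than in Fra-2 controls by 5.43, and of the 13 markers 10 were higher and 1 lower.

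Smooth muscle and pericyte markers summed to 9.50 to 10.2 in Fra-1 knockouts, 18.1 to 24.4 in Fra-1 controls, 2.28 to 2.32 in Fra-2 knockouts and 1.91 to 2.13 in Fra-2 controls. Of 12 such markers 6 were tested, with 2 lower at an unadjusted p under 0.05 in Fra-1 knockouts, Tagln by −1.03 (adjusted p = 0.205), and 3 higher in Fra-1 controls than in Fra-2 controls, Des by 4.70 and Acta2 by 4.12. Myh11, Lmod1 and Notch3 were below background on all arrays. Vwf carried 64.7% to 75.1% of the summed signal of the endothelial markers on Fra-1 line arrays and 2.64% to 5.52% on Fra-2 line arrays. With Vwf the sums were 28.6 to 31.7 in Fra-1 knockouts and 26.3 to 29.8 in Fra-1 controls. They were 10.05 to 11.4 in Fra-2 knockouts and 8.85 to 10.8 in Fra-2 controls. Without Vwf the sums were 9.38 to 10.1 in Fra-1 knockouts and 7.43 to 8.55 in Fra-1 controls. They were then 9.73 to 11.1 in Fra-2 knockouts and 8.36 to 10.4 in Fra-2 controls. Tek, Emcn, Erg and Cldn5 were below background throughout. Of 12 endothelial markers 6 were tested, with 2 called higher and 1 lower in Fra-1 controls than in Fra-2 controls. The 11 macrophage markers with a value on all arrays summed to 1575 to 1730 in Fra-1 knockouts and 1645 to 2017 in Fra-1 controls. Their sum was 1914 to 1948 in Fra-2 knockouts and 1968 to 2168 in Fra-2 controls. Of the 12 macrophage markers 1 was higher and 6 were lower in Fra-1 controls than in Fra-2 controls, with Cd68 at 1.93, Cd14 at −3.94 and Adgre1 at −1.61.

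Markers of large resident peritoneal macrophages and of lymphoid and mast cells also differed between the controls. Of 10 tested markers of large resident macrophages 7 were lower and 1 higher in Fra-1 controls, and Timd4, a receptor of these cells, was at least 822-fold lower, with −6.69 and −6.78 in Fra-1 controls and 4.55 and 4.89 in Fra-2 controls. All 6 tested B cell markers and all 7 tested mast cell markers were lower in Fra-1 controls, Cd79a of the B cell receptor by at least 13.9-fold and Mcpt4, a mast cell protease, with a log2 difference of −7.01. The part that other cells play in the matrix differences was not tested.

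**Figure D4:**
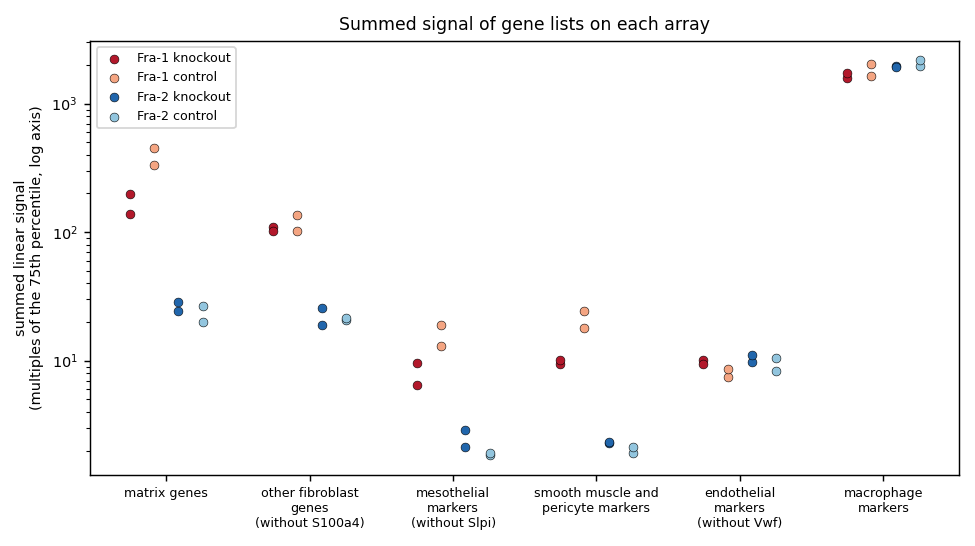
Summed linear signal (y axis, multiples of each array's 75th percentile, log axis) of the 40 matrix genes and of marker lists on each array, coloured by group, with S100a4 left out of the other fibroblast genes, Slpi out of the mesothelial markers and Vwf out of the endothelial markers, which each led their list. Matrix, mesothelial and smooth muscle sums are lower on the Fra-1 knockout arrays than on the Fra-1 control arrays and lowest in the Fra-2 line. Macrophage marker sums lie between 1575 and 2168 on all arrays. With Slpi kept, mesothelial sums are highest in the Fra-2 line. With Vwf kept, endothelial sums are higher in the Fra-1 line.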

How the data were processed

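Single-colour Agilent arrays were read from the deposited scanner files, made with Feature Extraction 11.5.1.1 and an array design named for mm9, per the file headers. Per the file headers, the processed signal is a linear intensity from which the scanner software had subtracted background, and further columns hold flags (0 or 1) for background, outliers and saturation. In the deposited series matrix the log2 values had a median of 0 for each probe and correlated with scanner values centred the same way at 0.999988 or more. Control spots and outlier spots (191 to 317 per array) were left out and spots of a probe averaged. The 75th percentile of signal ran from 315 to 470, and 1 spot was saturated. A probe was kept when well above background on both arrays of a group. Gene names came from matching each probe's accession to RefSeq (GRCm38.p6), which also gave the promoter letters, and 28026 of 55681 noncontrol probes were named. Over all 8 arrays, limma 3.58.1 in R 4.3.3 fitted the means of 4 groups to 23118 features (residual degrees of freedom 4, prior 1.99), with Benjamini-Hochberg adjustment within each comparison. SE is the moderated standard error. Calls need an adjusted p under 0.05.

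Members and lists were chosen with earlier results of these data known. All members may be named; of the other lists, up to 3 called genes with the largest difference and no overlap are named per comparison, or the gene with the smallest p. Marker sums use genes with a value on every array, including values below background. The number of arrays limits precision. The fit was tested on simulated data. Alternatives were quantile normalization, normexp correction (offset 50, on median signals), the series matrix, dropping the filter, asking for detection on all 8 arrays, averaging a gene's probes, a common floor (−3.58), slide as a block, only the groups compared, and leaving out each array. A comparison of the members' proteins was not run. Figures were drawn with matplotlib 3.10.9, and tables came from pandas 2.3.3 and numpy 2.4.6 under Python 3.11.15.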

Additional observations from a re-analysis of the deposited data

How the results depend on the processing

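No paired analysis was possible because of the replicate numbers, which only name the arrays in order. Slide, which held a Fra-2 knockout and a Fra-2 control array each time, was used as a block instead. In the Fra-1 comparison the count of called matrix genes was 0 and became 1 with quantile normalization (Col12a1) and with the common floor (Fbn1), and it was 0 to 1 with single arrays left out. Its median of −1.28 was −0.84 with normexp correction and −1.60 to −1.01 with single arrays left out. Normexp correction turned the differences of Eln (0.064) and Thy1 (0.0728). With single arrays left out Lum ran from −2.65 to 0.44, Eln from −0.51 to 0.21 and Thy1 from −0.39 to 0.10. In the Fra-2 comparison 0 genes were called under every alternative run, and the median of 0.17 ran from −0.07 to 0.50 with single arrays left out. The interaction had 1 call with quantile normalization (Col12a1) and 0 to 1 with single arrays left out, with a median of −1.45 that was −0.83 with normexp correction and −1.68 to −1.03 with single arrays left out. Between the controls the 31 calls became 16 of 18 tested genes when a probe had to be above background on all 8 arrays, and were 29 to 31 with single arrays left out. The median of 3.93 was 1.94 with normexp correction, 3.31 without a filter, 3.18 with the filter on all 8 arrays and 2.59 with the common floor. Fewer genes are tested under the strict filter, and the floor shortens differences from dim genes by construction; for the other settings the cause was not tested. Dim genes are limited by the background of each array, most of all Fra-2 knockout 1.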
